A study of Mus musculus with 6 samples.

Results

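Solute transporters of the leptomeninges and the prostaglandin synthase gene *Ptgds* were followed in the medial prefrontal cortex (mPFC) of *Shank3* transgenic (TG) and wild-type (WT) mice. The set is 9 of the 18254 genes in the deposited table, 8 transporter genes and *Ptgds*, taken by their Ensembl identifiers and named with GENCODE release M21, and 9 of 9 were found. The *Shank3* TG mice carry an EGFP-Shank3 transgene, whose promoter is not given in the sources used here. Their controls were WT littermates, both genotypes were male on a C57BL/6J background and 10 to 12 weeks old, and no treatment was given. Each genotype had 3 libraries, numbered TG-1, TG-2 and TG-3 or WT-1, WT-2 and WT-3. Every library was a pool of 2 mice, so the spread between replicates is that between pools. The values are normalized read counts, and a library summed to between 28363967 and 29447717 of them.

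The leptomeninges, the arachnoid and the pia, wrap the cortex, and the mPFC has a pial surface on its medial face. Arachnoid barrier cells are joined by tight junctions and separate the cerebrospinal fluid from the dura, whose vessels are leaky. Transporters in these cells and in pial fibroblasts carry organic anions, organic cations, dicarboxylates, sulfate and amino acids between the fluid and the tissue or blood. *Ptgds* makes prostaglandin D from prostaglandin H, and its protein is also secreted into the cerebrospinal fluid as a lipophilic carrier. Leptomeningeal cells, choroid plexus epithelium and oligodendrocytes are known to make it.

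All 9 genes had higher mean levels in *Shank3* TG than in WT, by 1.16-fold for *Slc6a20a* to 1.71-fold for *Slc47a1*, with a median log2 difference of 0.35 against -0.0037 over all 16714 genes tested. For 7 of the 9 genes every *Shank3* TG library lay above every WT library, where 2.91% of all tested genes did. With limma, none of the 9 genes reached an adjusted p of 0.05, nor did any other gene (0% of all tested genes), and each of the 9 had an adjusted p-value of 1. With unadjusted p-values under 0.05, 6 of the 9 genes were higher in *Shank3* TG, against 0.933% of all tested genes. The 9 genes were chosen with earlier results of these data known, so these shares describe the set and do not test it. The 7 genes without overlap had the smallest two-sided p that an exact permutation test allows with 3 libraries a group, 0.1, and *Slc22a2* and *Slc6a13* had 0.2.

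The promoters of 4 of the genes are shown because all 9 genes were higher on average in *Shank3* TG and because *Slc22a8* and *Slc22a6* are neighbours on chromosome 19 with 6203 bases and 0 annotated genes between them. RefSeq windows on GRCm38.p6, running from 250 bases before to 50 bases after the annotated start, were held for 8 of the 9 genes, with 10 windows in all, and *Slc47a1* had none. Capitals mark matches on either strand to TATAAA, the core of the TATA box, to CCAAT, the CCAAT box, to GGGCGG, the GC box, to TGTTTAC, a forkhead motif, and to GTTAAT, a half-site of the motif of HNF1 factors. GTTAAT was added after the sequences had been seen. The sequences read 5′ to 3′ on the strand of the gene.

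Slc22a8 (chr19:8592932-8593231, plus strand): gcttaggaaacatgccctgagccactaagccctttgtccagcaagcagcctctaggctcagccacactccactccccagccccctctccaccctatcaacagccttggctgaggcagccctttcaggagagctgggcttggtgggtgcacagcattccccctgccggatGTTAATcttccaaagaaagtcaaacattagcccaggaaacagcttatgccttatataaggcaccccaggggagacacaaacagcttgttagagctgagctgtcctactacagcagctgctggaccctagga
Slc22a6 (chr19:8617746-8618045, plus strand): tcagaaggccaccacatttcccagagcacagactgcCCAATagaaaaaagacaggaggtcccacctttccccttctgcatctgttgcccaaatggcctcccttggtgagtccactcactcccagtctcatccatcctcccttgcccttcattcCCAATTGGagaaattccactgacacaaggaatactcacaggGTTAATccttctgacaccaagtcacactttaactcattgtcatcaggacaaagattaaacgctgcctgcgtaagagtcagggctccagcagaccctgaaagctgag
Slc13a4 (chr6:35308077-35308376, minus strand): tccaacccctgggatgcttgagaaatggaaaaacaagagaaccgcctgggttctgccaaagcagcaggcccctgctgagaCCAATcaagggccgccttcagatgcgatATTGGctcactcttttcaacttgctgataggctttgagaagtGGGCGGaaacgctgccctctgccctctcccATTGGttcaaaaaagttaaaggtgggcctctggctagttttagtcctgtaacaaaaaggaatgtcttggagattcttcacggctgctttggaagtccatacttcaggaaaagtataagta
Ptgds (chr2:25469700-25469999, minus strand): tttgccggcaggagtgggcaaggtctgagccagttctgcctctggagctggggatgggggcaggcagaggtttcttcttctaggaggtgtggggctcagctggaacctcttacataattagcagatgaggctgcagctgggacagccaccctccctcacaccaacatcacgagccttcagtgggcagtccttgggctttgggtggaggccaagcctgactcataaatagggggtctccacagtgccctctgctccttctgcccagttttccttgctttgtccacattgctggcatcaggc

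GTTAAT lay at -81 to -76 of *Slc22a8* and at -56 to -51 of *Slc22a6*, counting back from -1 at the base before the start. It was also in windows of *Slc6a13* and *Slc6a20a*, so that 4 of the 10 windows held it, and 7.1% of all 32851 promoter windows did. GTTAAT was picked after these windows had been seen, so its share in them is no test of an excess. CCAAT was in 5 of the 10 windows, those of *Slc13a4*, *Slc22a2* and *Slc22a6* and 2 of *Slc6a13*, against 37.4% of all windows. In *Slc22a6*, CCAAT at -97 to -93 overlapped its reverse complement at -94 to -90. GGGCGG was in 4 of the 10, of *Slc13a3*, *Slc13a4*, *Slc6a13* and *Slc6a20a*, against 35.7%. No window of the 8 genes held TATAAA (13.6% of all windows) or TGTTTAC (3.65%), and the *Ptgds* window held none of the 5. The RefSeq start of *Slc22a8* lay 1928 bases inside the GENCODE gene, and that of *Ptgds* 297 bases inside.

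The organic anion exchangers *Slc22a6* and *Slc22a8* take up organic anions, drugs and metabolites in exchange for dicarboxylates. *Slc22a8* (ENSMUSG00000063796, GRCm38 chromosome 19 from 8591254 to 8611835, plus strand) was at 797, 798 and 895 normalized counts in TG-1, TG-2 and TG-3, against 698, 610 and 745 in WT-1, WT-2 and WT-3. The groups did not overlap, and the lowest *Shank3* TG library was 1.07 times the highest WT library. Its log2 difference was 0.28 (standard error 0.10), an estimate of 1.21-fold (limma, unadjusted p = 0.027). *Slc22a6* (ENSMUSG00000024650, chromosome 19 from 8618039 to 8628299, plus strand) was at 261, 280 and 257 normalized counts in the libraries of *Shank3* TG, against 254, 207 and 196 in those of WT. WT-1 reached nearly the *Shank3* TG range, so that the gap between the groups was 1.01 times, and the other WT libraries were lower. Its log2 difference was 0.29 (standard error 0.13), and the 95% interval from -0.01 to 0.59 included 0. *Slc22a6* and *Slc22a8* shared 0% and 0.612% of their 31-base words with transcripts of other genes.

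Organic cations are handled by *Slc22a2*, which takes them up, and by *Slc47a1*, a proton-coupled antiporter that extrudes them. *Slc47a1* (ENSMUSG00000010122, chromosome 11 from 61343401 to 61378345, minus strand) was at 257, 184 and 229 normalized counts in the libraries of *Shank3* TG, against 112, 124 and 156 in those of WT. The lowest *Shank3* TG library, TG-2, was 1.18 times the highest WT library, WT-3. The log2 difference of *Slc47a1* was the largest of the 9 genes, 0.77 (standard error 0.18), and stood at the 98.7th percentile of all tested genes. It ranged from 0.66 without TG-1 to 0.90 without TG-2, and limma's unadjusted p-value was 0.00286. *Slc22a2* (ENSMUSG00000040966, chromosome 17 from 12584132 to 12628488, plus strand) was the least abundant of the 9 genes, at 27, 44.6 and 47.8 normalized counts in the libraries of *Shank3* TG, against 24.3, 24.3 and 32.9 in those of WT. TG-1 lay below WT-3, so the groups overlapped. Its log2 difference of 0.51 (standard error 0.29) had a 95% interval from -0.16 to 1.17 and ranged from 0.36 without TG-3 to 0.76 without TG-1. Of its 31-base words, 7.7% occurred in transcripts of other genes.

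The sodium-coupled carriers *Slc13a3* and *Slc13a4* take up dicarboxylates and sulfate, respectively. *Slc13a4* (ENSMUSG00000029843, chromosome 6 from 35267957 to 35308131, minus strand) was at 420, 544 and 436 normalized counts in the libraries of *Shank3* TG, against 344, 351 and 335 in those of WT. The WT libraries were tightly grouped (343 ± 8.2, SD, n = 3), those of *Shank3* TG were spread (467 ± 67.4), and the groups were 1.2 times apart at their nearest. The log2 difference of *Slc13a4* was 0.43 (standard error 0.12, limma's unadjusted p-value 0.00712), and was 0.32 without TG-2. *Slc13a3* (ENSMUSG00000018459, chromosome 2 from 165405028 to 165473230, minus strand) was at 510, 646 and 477 normalized counts in the libraries of *Shank3* TG, against 452, 391 and 426 in those of WT. The groups did not overlap, but TG-2 stood above TG-1 and TG-3. The log2 difference of 0.35 (standard error 0.13) was 0.22 without TG-2. The antisense gene *Gm14437* overlaps *Slc13a3* on the opposite strand over 8222 bases.

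The amino acid carriers were *Slc6a13*, which takes up GABA, betaine and taurine, and *Slc6a20a*, which takes up proline and other imino acids. *Slc6a13* (ENSMUSG00000030108, chromosome 6 from 121300227 to 121337733, plus strand) was at 326, 371 and 216 normalized counts in the libraries of *Shank3* TG, against 243, 201 and 197 in those of WT. TG-3 lay below WT-1, so the groups overlapped, and the log2 difference of 0.48 (standard error 0.20) ranged from 0.32 without TG-2 to 0.71 without TG-3. *Slc6a20a* (ENSMUSG00000036814, chromosome 9 from 123634770 to 123678885, minus strand) was at 594, 693 and 611 normalized counts in the libraries of *Shank3* TG, against 574, 514 and 542 in those of WT. Its groups were 1.03 times apart and its log2 difference, 0.22 (standard error 0.10), was the smallest of the 9, with a 95% interval from -0.01 to 0.44, and was 0.15 without TG-2.

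The value of *Slc6a20a* is uncertain because 32% of its 31-base words occurred in transcripts of other genes, most of them in its paralog *Slc6a20b*. *Slc6a20b* had 178 and 218 normalized counts in TG-1 and TG-2 and 168 in WT-2, but 17, 13.6 and 19.8 in TG-3, WT-1 and WT-3, so that it split the libraries of each genotype. The annotated gene *Gm47171* also overlaps *Slc6a20a*, on the same strand over 2794 bases. Summed over both genes, the levels were 772, 911 and 628 normalized counts in *Shank3* TG, against 588, 682 and 562 in WT. WT-2 then lay above TG-3, and the log2 difference of the sum was 0.32 (exact two-sided permutation test, p = 0.2, n = 3 in each group).

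*Ptgds* (ENSMUSG00000015090, chromosome 2 from 25466709 to 25470046, minus strand) was at 15195, 15792 and 16060 normalized counts in the libraries of *Shank3* TG, against 11667, 11010 and 14432 in those of WT. The *Shank3* TG libraries lay close together (15682 ± 443, SD, n = 3) and the WT libraries did not (12369 ± 1816). The groups did not overlap, but WT-3 lay above the other WT libraries, and the lowest *Shank3* TG library was 1.05 times as high. The log2 difference was 0.35 (standard error 0.11, 95% interval 0.10 to 0.60, limma's unadjusted p-value 0.0113). It ranged from 0.27 without WT-2 to 0.47 without WT-3. *Ptgds* was at the 98.5th percentile of mean normalized counts among the tested genes, and in each library it held between 0.0382% and 0.0557% of all normalized counts. None of its 31-base words occurred in another gene.

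**Figure D1:**
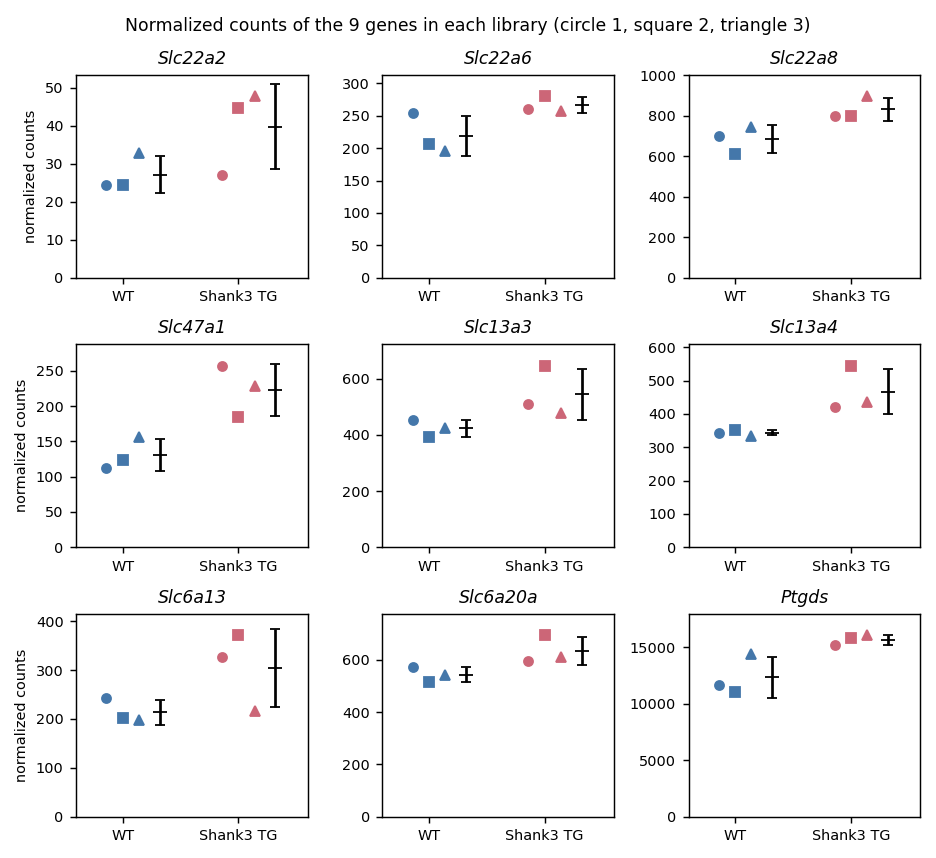
Normalized counts (y axis, from 0) of the 9 genes in the 3 WT and 3 *Shank3* TG libraries, with symbols for the replicate number and the mean and SD (n = 3) beside each group. The groups overlap for *Slc22a2* and *Slc6a13* and do not for the other 7 genes.

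Levels were compared between genes after division by annotated exon length, as normalized counts per kb. In WT, *Ptgds* had a mean of 7501 per kb, far above *Slc22a8* with 175 per kb (156 to 191 over the libraries) and *Slc6a20a* with 133 per kb (126 to 141). *Slc13a3* with 81.1, *Slc13a4* with 75.8 and *Slc6a13* with 73.5 normalized counts per kb had overlapping ranges and no order among themselves. *Slc22a6* followed with 54.9 per kb (49.1 to 63.7), *Slc47a1* with 38.6 per kb (33 to 46) and *Slc22a2* with 10.9 per kb (9.77 to 13.2). In *Shank3* TG the level of *Slc47a1*, 66 per kb, overlapped that of *Slc22a6*, 66.8 per kb, and *Slc6a13*, *Slc13a3* and *Slc13a4* again overlapped at 105, 104 and 103 per kb. The per-kb levels use all annotated exons of a gene and not the transcripts in use.

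**Figure D2:**
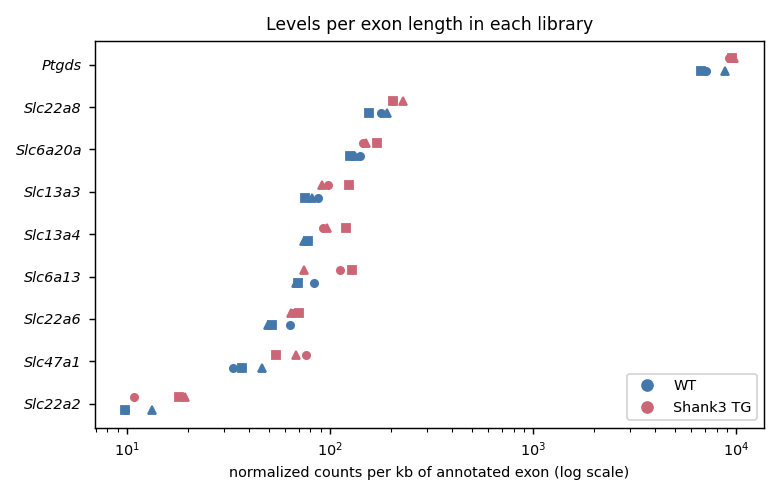
Normalized counts per kb of annotated exon (x axis, log scale) for each gene and library, WT in blue and *Shank3* TG in red, with symbols for the replicate number. *Ptgds* lies at 6677 per kb or higher in every library, *Slc22a2* lies under 19.4 per kb, and the other 7 transporters lie between them.

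Across all tested genes, deviations from the genotype means correlated at 0.302, 0.332 and 0.616 for the same-numbered libraries 1, 2 and 3. Numbers 1 and 2 were hardly set apart, as TG-1 with WT-2 had 0.266 and TG-2 with WT-1 had 0.227. Within each number, *Shank3* TG was above WT for all 9 genes at numbers 1, 2 and 3, where 11.6% of all tested genes were higher at all 3 numbers. The differences were smallest at number 1 for *Slc22a6*, 0.04 on the log2 scale, and for *Slc6a20a*, 0.05. The largest was 1.20 for *Slc47a1* at number 1. At number 2 the median of the 9 differences was 0.56, against 0.19 at number 1 and 0.26 at number 3. In limma with a block for the replicate number, 0 of the 9 genes and 0.00598% of all tested genes reached an adjusted p of 0.05. Under the block 8 of the 9 genes, all but *Slc22a2*, had unadjusted p-values under 0.05 and were higher in *Shank3* TG, against 2.33% of all tested genes, and the smallest were 0.000979 for *Slc47a1*, 0.00122 for *Ptgds* and 0.00183 for *Slc13a4*.

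The study's methods fit an empirical null to the test statistics. A stand-in for it, which rescales limma's z-scores by their width, 0.731, called 0.156% of all tested genes. Of the 9 genes it called *Slc47a1*, at an adjusted limma p of 0.0475. The next were *Slc13a4* with 0.067 and *Ptgds* with 0.102, and the other 6 had adjusted p-values from 0.236 to 0.593. Under the other alternatives tried, no adjusted p-value of *Slc47a1* was under 0.05.

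**Figure D3:**
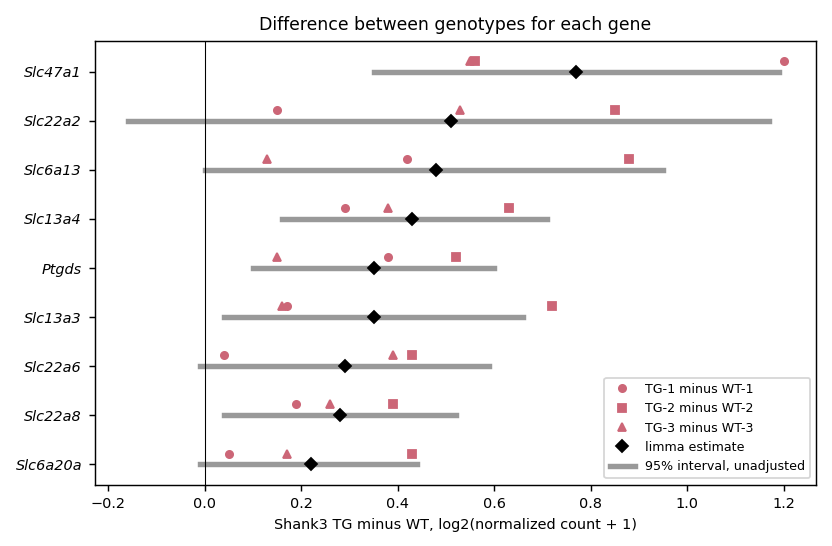
Difference between *Shank3* TG and WT on the scale log2(normalized count + 1) (x axis) for each gene, with limma's estimate (diamond), its unadjusted 95% interval (bar) and the differences within the replicate numbers (red symbols). All within-number differences lie above 0, and the intervals of *Slc22a2*, *Slc6a20a* and *Slc22a6* reach below 0.

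The libraries did not order the genes alike. TG-2 was the highest library for 5 genes (*Slc22a6*, *Slc13a3*, *Slc13a4*, *Slc6a13* and *Slc6a20a*), TG-3 for 3 (*Slc22a2*, *Slc22a8* and *Ptgds*) and TG-1 for *Slc47a1*. The lowest library was WT-2 for 5 genes, WT-3 for 3 and WT-1 for 1. The mean of the centred log2 levels of the 8 transporters was 0.14, 0.32 and 0.16 in TG-1, TG-2 and TG-3 and -0.17, -0.29 and -0.16 in WT-1, WT-2 and WT-3, so that the libraries numbered 2 were farthest apart. For *Ptgds* the centred levels were 0.13, 0.19 and 0.21 in *Shank3* TG and -0.25, -0.33 and 0.06 in WT, where WT-3 stood apart from the other WT libraries.

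**Figure D4:**
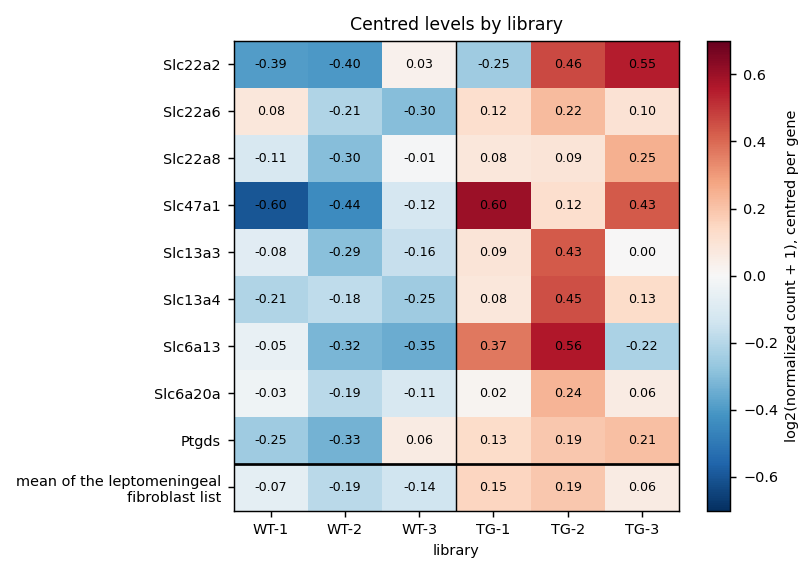
Log2(normalized count + 1), centred per gene, of the 9 genes in the 6 libraries (columns), with the mean over a list of 35 leptomeningeal fibroblast genes in the bottom row. Cells of *Shank3* TG are positive or 0 except *Slc22a2* in TG-1 (-0.25) and *Slc6a13* in TG-3 (-0.22), and the list mean is 0.15, 0.19 and 0.06 in *Shank3* TG and -0.07, -0.19 and -0.14 in WT.

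Likeness to the transporters was read over the 13447 other genes whose mean reached 50 normalized counts. The 10 whose 6 library values were most like the mean profile of the 8 transporters were *Islr*, *Swsap1*, *Fmod*, *Gdf10*, *Msi2*, *Slc7a4*, *Tuba1a*, *CK137956*, *Vasp* and *Abi1*. Their Pearson correlations with that profile lay between 0.959 and 0.992 over 6 libraries, which share the genotype difference, and between 0.61 and 0.95 for the deviations from the genotype means. *Islr*, a secreted leucine-rich repeat protein of fibroblasts, had the highest, at 455, 509 and 463 normalized counts in the libraries of *Shank3* TG, against 367, 335 and 388 in those of WT. *Fmod*, a collagen-binding proteoglycan, had 645, 717 and 637 against 551, 528 and 525. *Islr* and *Fmod* belong to the list of leptomeningeal fibroblast genes, of which 33 were among the candidates. Over the 6 libraries these had a median correlation of 0.65 against -0.02 over all candidates. That median holds the genotype difference, since 31 of the 35 tested genes of the list had higher means in *Shank3* TG. The list's correlation within the genotypes was not summarized.

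The leptomeningeal fibroblast list held 36 matrix, growth factor and regulatory genes other than the 9, of which 35 were tested. Like the other lists, it was chosen with earlier results of these data known, so the shares below describe it and do not test it. In *Shank3* TG 31 of the 35 had higher means, with a median log2 difference of 0.26, and for 11 every *Shank3* TG library lay above every WT library, against 2.91% of all tested genes. None passed the adjusted threshold, and limma's unadjusted p was under 0.05 for 11, each of them higher in *Shank3* TG, against 0.933% of all tested genes. Without TG-2 the median was 0.21, and 12 genes were higher and 1 lower without overlap, where 6.74% of all tested genes were higher without overlap and 1221 of 16645 were lower. The summed level of the list was 15368, 16354 and 14129 normalized counts in *Shank3* TG, against 14414, 13192 and 12868 in WT, so the groups overlapped. *Igf2*, a growth factor of the leptomeninges, was at 1990, 2278 and 1938 normalized counts in the libraries of *Shank3* TG, against 1856, 1624 and 1759 in those of WT, a log2 difference of 0.24 (standard error 0.09). *Pdgfra*, which is also the receptor of oligodendrocyte precursors, had 1364, 1761 and 1371 against 1722, 1482 and 1382 and a log2 difference of -0.03, and *Gjb6*, a connexin also of astrocytes, had -0.01 (standard error 0.21). *Igfbp2*, a binding protein of insulin-like growth factors, had a log2 difference of 0.34 (standard error 0.14). In pooled tissue, more cells of a type and more RNA per cell cannot be told apart.

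When the mean profile of this list was subtracted from every gene, a comparison chosen after the data had been seen, the median log2 difference of the 9 genes was 0.09. It was 0.50 for *Slc47a1* (95% interval 0.05 to 0.95, adjusted p-value 0.129 by limma), between 0.02 and 0.24 for 7 genes and -0.05 for *Slc6a20a*. The profile was taken as known without error. The median of all tested genes was -0.27 on this scale, and 5902 of them were lower in *Shank3* TG at an unadjusted limma p under 0.05. The adjusted p-value of *Slc47a1* here therefore cannot be set against that of the main fit. Its unadjusted limma p was 0.0321 on this scale and 0.00286 without the subtraction.

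Transporter genes outside the set were read from a list of their families and a list of barrier transporters. Of 44 other genes of the families Slc22, Slc47, Slc13 and Slc6, 34 were in the table and 29 were tested. Their median log2 difference was 0.05, with 20 higher and 9 lower. Limma's unadjusted p was under 0.05 for 0 of the 29, where 156 of all 16714 tested genes were higher and 180 lower. Among the most abundant were *Slc6a17* (log2 difference 0.08, standard error 0.07), a neuronal vesicular amino acid transporter, *Slc22a17* (0.08, standard error 0.09), a lipocalin receptor, and *Slc6a6* (0.04, standard error 0.12), the taurine transporter. For *Slc22a13* and *Slc22a18*, both under 22 normalized counts, every *Shank3* TG library lay above every WT library, so 2 of the 29, against 2.91% of all tested genes. A list of 20 transporters of the arachnoid and other brain barriers had a median log2 difference of 0.02, with 14 higher, 6 lower and 0 without overlap. Over all tested genes, 2.91% were higher and 3.12% lower without overlap. The barrier list included the organic anion carriers *Slco1c1* (0.04, standard error 0.09) and *Slco2a1*, a prostaglandin carrier (0.10, standard error 0.18). The efflux pumps *Abcb1a* (0.00, standard error 0.09) and *Abcc4* (-0.04, standard error 0.14) were also in it. *Slc26a7*, an anion exchanger, was at 93.3, 109 and 147 normalized counts in the libraries of *Shank3* TG, against 64.3, 71.2 and 103 in those of WT, so that the groups overlapped, with a log2 difference of 0.54 (standard error 0.24). With the block, *Slc26a7* and the cystine carrier *Slc7a11* (log2 difference 0.16, standard error 0.12) had unadjusted p-values under 0.05, of 0.00516 and 0.039, so 2 of the 20, against 2.33% of all tested genes, and adjusted p-values of 0.579 and 0.994. The 4 most abundant genes of the list, the efflux pump *Abcc5*, the bicarbonate carrier *Slc4a10*, the ascorbate carrier *Slc23a2* and the amino acid carrier *Slc38a2*, had log2 differences between -0.01 and 0.04.

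The prostaglandin genes around *Ptgds* were also measured. Of 23 genes for synthesis, receptors and breakdown, 20 were tested, with a median log2 difference of 0.05, 12 higher and 8 lower. Limma's unadjusted p was under 0.05 for 0 of the 20, where 156 of all 16714 tested genes were higher and 180 lower. The 4 most abundant were *Ptges3* (-0.01, standard error 0.14), *Ptgr2* (-0.01, standard error 0.10), *Cbr1* (0.07, standard error 0.09) and *Ptges2* (-0.11, standard error 0.15), enzymes of prostaglandin E synthesis and of prostaglandin reduction. *Ptgfr*, the receptor of prostaglandin F, was at 31.9, 33.2 and 27.8 normalized counts in the libraries of *Shank3* TG, against 25.7, 19.6 and 22.5 in those of WT, and *Tbxas1*, thromboxane synthase, had 118, 114 and 110 against 164, 150 and 123. These were the tested genes of that list without overlap between the groups, *Ptgfr* higher and *Tbxas1* lower in *Shank3* TG, where 2.91% of all tested genes were higher and 3.12% lower without overlap.

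Other cell types known to carry some of these genes were read from lists of their markers. Oligodendrocytes also make *Ptgds*, and of 15 oligodendrocyte genes 15 had lower means in *Shank3* TG, with a median log2 difference of -0.43. For 14 of them every *Shank3* TG library lay below every WT library, against 3.12% of all tested genes. The list's summed level was 48278 to 62786 in *Shank3* TG and 69977 to 82569 in WT. Its part in the level of *Ptgds* was not tested.

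Choroid plexus epithelium carries *Slc22a8*, *Slc13a4* and *Ptgds* as well. The 12 tested choroid plexus genes had a median log2 difference of 0.16, 8 higher and 4 lower, and their summed level was 1005, 962 and 1369 normalized counts in *Shank3* TG, against 945, 967 and 1132 in WT. The most abundant was *Trpm3*, a channel at 683 to 782 normalized counts, which made up the largest part of the sum in every library. It was the 1 of the 12 for which every *Shank3* TG library lay below every WT library, against 3.12% of all tested genes (log2 difference -0.13, standard error 0.08). The summed level therefore says little about the less abundant genes of the list. The defining marker *Ttr* was at 127, 22.9 and 445 normalized counts in the libraries of *Shank3* TG, against 14.3, 12.6 and 41.7 in those of WT. *Ttr* was thus higher in *Shank3* TG at each of the 3 numbers, and the groups overlapped because TG-2 lay below WT-3 (log2 difference 2.42, standard error 0.97). *Kcnj13*, a potassium channel, was at 31.5, 28 and 32.6 normalized counts in the libraries of *Shank3* TG, against 21.7, 23 and 19.4 in those of WT, and was the 1 of the 12 for which every *Shank3* TG library lay above every WT library, against 2.91% of all tested genes. *Prlr*, the prolactin receptor, was at 21.4, 20.5 and 28.9 normalized counts in the libraries of *Shank3* TG, against 45.1, 19.9 and 124 in those of WT, so that the groups overlapped (log2 difference -1.02, standard error 0.58). *Folr1* had between 3.7 and 13 normalized counts, and *Otx2*, which was too low to be tested, was listed at 0 in TG-2 and WT-2 and reached 7.49 in TG-3. The part of choroid plexus RNA in the levels of the 9 genes was not tested.

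The median log2 differences were 0.00 for 15 endothelial, 12 astrocyte and 11 microglial genes, 0.01 for 12 mural genes and 0.02 for 12 genes of cortical excitatory neurons. Of the excitatory neuron genes, *Slc17a7*, the vesicular glutamate transporter of cortical neurons, was the 1 of 12 without overlap (log2 difference 0.13, standard error 0.07), against 2.91% of all tested genes, and *Camk2a* (0.05), *Tbr1* (-0.04) and *Rasgrf2* (0.12) overlapped. Border macrophage genes, which mark cells of the leptomeninges and perivascular spaces, had a median of 0.30, with 10 of 11 higher in *Shank3* TG. For 3 of the 11, *Cd209f*, *Ms4a7* and *Clec4n*, every *Shank3* TG library lay above every WT library, against 2.91% of all tested genes. Their WT means were low, at 4.43, 20.4 and 2.52 normalized counts. *Cd209f* and *Clec4n* reached the minimum mean of 5 only through the *Shank3* TG libraries, so their lack of overlap is no support. The 4 most abundant, *Stab1*, *Mrc1*, *Cd163* and *F13a1*, overlapped between the groups. *Stab1* was at 731, 885 and 675 normalized counts in the libraries of *Shank3* TG, against 752, 578 and 538 in those of WT, and *Mrc1* had a log2 difference of 0.26 (standard error 0.17). Genes of red blood cells had a median of 0.17 over 5 genes.

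**Figure D5:**
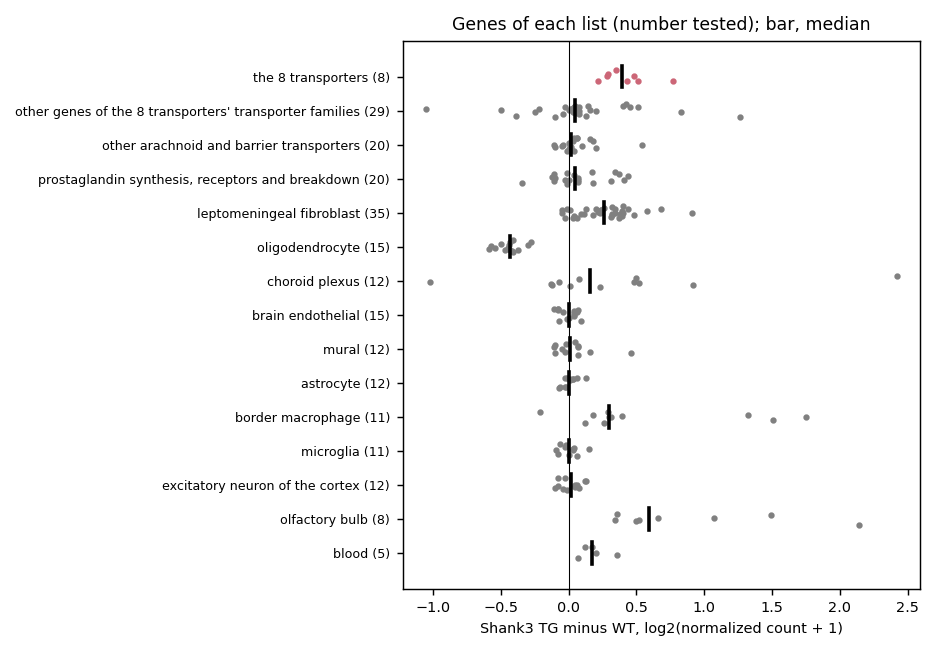
Difference between *Shank3* TG and WT on the scale log2(normalized count + 1) (x axis) for each tested gene of each list (rows, number tested in brackets), with black bars at the medians and the 8 transporters in red. The medians are 0.39 for the 8 transporters, 0.26 for leptomeningeal fibroblast genes, -0.43 for oligodendrocyte genes and 0.05 for the other genes of the transporter families.

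TG-2 differed from the other libraries in genes of the olfactory bulb, which borders the dissected region in front. The 8 tested genes summed to 2466 normalized counts in TG-2 and to between 418 and 628 in the other 5 libraries. Without TG-2, 9 of the 9 genes were still higher in *Shank3* TG, with a median log2 difference of 0.32, and 7 did not overlap, against 6.74% of all tested genes. Without TG-3 and WT-3, the same-numbered pair whose deviations from the genotype means correlated most (0.616 across genes), the median was 0.45. *Shank3*, the gene of the transgene, had 16310 to 19003 normalized counts in *Shank3* TG and 6791 to 8374 in WT, a log2 difference of 1.18 (standard error 0.10), at an adjusted limma p-value of 0.0643, or 0.000437 with the block.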

How the data were processed

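RNA of the mPFC was sequenced from 6 libraries, 3 of each genotype, made with a stranded mRNA kit. The authors estimated transcript abundance with Salmon 0.9.1 on GRCm38 with GC bias correction, combined it per gene with tximport and normalized it by the size factors of DESeq2 1.19.11. The deposited values are this signal, normalized read counts, for 18254 genes. Gene names and positions came from GENCODE release M21, also on GRCm38, in which 23 genes were not found.

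The 16714 genes whose mean over all libraries reached 5 normalized counts were fitted in R 4.3.3 with limma 3.58.1 on the scale log2(normalized count + 1), with the genotype alone in the model and a mean-variance trend in eBayes. Two-sided p-values were adjusted over these genes by Benjamini-Hochberg, at a threshold of 0.05. A log2 difference on this scale understates that of genes with low counts. Since the values are not whole reads, counting intervals were left out. The fit was tested on simulated data. Words of 31 bases were compared between GENCODE transcripts on both strands.

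Correlations of the deviations from the genotype means, across genes, were 0.302, 0.332 and 0.616 for the libraries with the same number and at most 0.266 for the others, so the replicate number was also fitted as a block. Other alternatives used a pseudocount of 0.1 or 5, a minimum mean of 50 or no minimum, upper quartile and quantile scaling, eBayes without a trend and with the robust option, a term for the libraries numbered 3, the empirical null, the libraries numbered 1 and 2 alone and omission of 1 library at a time. The 9 genes and the lists of genes were chosen with earlier results of these data known. Besides the 9 genes, the text names *Shank3*, up to 4 of the most abundant genes of a list, and the 10 genes most like the transporters' profile. *Ptgfr*, *Tbxas1*, *Slc22a13*, *Slc22a18*, *Slc6a20b*, *Slco1c1*, *Slco2a1*, *Abcb1a*, *Abcc4*, *Slc26a7*, *Slc7a11*, *Kcnj13*, *Cd209f*, *Ms4a7*, *Clec4n*, *Folr1* and *Otx2* were named after their values had been seen. The lists of olfactory bulb, family and leptomeningeal genes held 1, 10 and 1 symbols that matched no row. Some genes of the lists are not reported here by name.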

Additional observations from a re-analysis of the deposited data

How the results depend on the processing

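The log2 difference of each of the 9 genes kept its direction under 18 of the 19 alternatives. Of 170 values (*Slc22a2* had none with a minimum mean of 50), 168 kept their direction and their side of the threshold, 1 passed it, *Slc47a1* with the empirical null (adjusted p-value 0.0475 in limma's test, log2 difference 0.77), and 1 turned, *Slc6a20a* relative to the leptomeningeal list, an alternative added after the data had been seen, at -0.05. Hence the count of the 9 genes past the threshold was 1 with the empirical null and 0 otherwise. The count over all genes, 0 with the design of the report and 336 genes at an unadjusted p-value under 0.05, was 26 with the empirical null. It was 1 with the replicate block, where the gene was *Shank3*, with the term for the libraries numbered 3, with upper quartile scaling, with the robust option and with the libraries numbered 1 and 2 alone, and lay between 0 and 1 when 1 library was omitted at a time, at 1 without WT-3. The median log2 difference of the 9 genes, 0.35, was 0.45 with the libraries numbered 1 and 2 alone and 0.09 relative to the leptomeningeal list. The replicate block changed no call among the 9 genes. The cause of these shifts was not tested. Each group held 3 libraries, each a pool of 2 mice, which limits the precision, and *Slc22a2*, with at most 47.8 normalized counts, had the widest interval.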
